A study of Mus musculus with 3 samples.

Results

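The 5 genes that encode the DNA-binding subunits of NF-κB, Rela, Rel, Relb, Nfkb1 and Nfkb2, were followed in cytosolic RNA of mouse macrophages, at the level of the gene and of each annotated transcript. They were found by gene symbol, and all 5 of the 55450 annotated genes matched, with 36 of the 141767 annotated transcripts: 7 of Rela, 1 of Rel, 10 of Relb, 10 of Nfkb1 and 8 of Nfkb2. The RNA came from bone marrow-derived macrophages, primary cells grown out of marrow progenitors, of C57BL/6J mice. All cells had been treated with Lipid A, the Toll-like receptor 4 ligand of bacterial lipopolysaccharide, at 100 ng/ml for 40 min, and ribosomal RNA was depleted before sequencing. The 3 libraries are biological replicates 1, 2 and 3 of this 1 group. They share 1 donor record, so separate animals are not established. All p-values therefore speak only of these libraries, and technical variation may suffice for the differences between them. Neither unstimulated cells nor other fractions were analysed here, and none of the values is therefore a response to Lipid A.

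NF-κB proteins act as dimers that share a Rel homology domain. Rela (p65), Rel (c-Rel) and Relb carry transactivation domains, whereas Nfkb1 and Nfkb2 encode the precursors p105 and p100, which are cut down to the subunits p50 and p52. In resting macrophages the dimers are held in the cytoplasm by inhibitors of the IκB family. Toll-like receptor 4 activates the IκB kinase, the inhibitors are degraded, and the freed dimers enter the nucleus, where the inhibitor and subunit genes are themselves among the known targets.

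Several of the differences between transcripts reported below turn on a few bases. In Relb, a gene on the minus strand of chromosome 7, 3 coding transcripts share the main start, and 2 of them hold a very short exon that the other skips. Each line gives the spliced coding sequence between chr7:19619817-19627948 (mm10), 5′ to 3′, with the short exon in capitals as it is annotated in GENCODE M21.
Relb-202: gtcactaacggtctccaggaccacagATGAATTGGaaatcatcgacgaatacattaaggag
Relb-203: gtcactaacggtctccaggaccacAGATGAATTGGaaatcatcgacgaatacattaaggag
Relb-201: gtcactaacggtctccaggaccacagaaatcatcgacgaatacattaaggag
The short exon has 9 bases in Relb-202 (19622926 to 19622934) and 11 bases in Relb-203 (19622926 to 19622936), and the exon before it ends at 19627923 in Relb-202 and at 19627925 in Relb-203. The letters of both stretches were the same. Over their whole lengths Relb-203, of 2203 bases, was contained in Relb-202, of 2209 bases, which only adds 6 bases, so next to no read can tell them apart. Among all pairs of transcripts of the same member gene this was the only case of 1 sequence lying inside another.

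In Rela, on the plus strand of chromosome 19, the retained-intron transcript Rela-203 begins inside an intron and shares the rest of its 786 bases with other transcripts. Its first bases are given next (chr19:5641146-5641210) beside the spliced coding sequence of Rela-201 at the same exon (chr19:5640405-5641210); capitals mark the 35 bases of intron that no other Rela transcript holds.
Rela-203: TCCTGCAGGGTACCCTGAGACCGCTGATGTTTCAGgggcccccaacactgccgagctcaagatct
Rela-201: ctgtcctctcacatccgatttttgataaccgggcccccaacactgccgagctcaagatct
Those 35 bases lie at 5641146 to 5641180, directly before exon 7 of the 11 exons of Rela-201. Rela-203 also stops 1054 bases short of the end of Rela-201.

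In Nfkb1, on the minus strand of chromosome 3, 2 transcripts skip an exon near the end of the message. The joins are shown with the exon before the skip in capitals, from chr3:135590459-135591583 for Nfkb1-207 and chr3:135585486-135590345 for Nfkb1-203.
Nfkb1-207: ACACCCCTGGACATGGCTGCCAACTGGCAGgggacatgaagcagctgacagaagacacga
Nfkb1-203: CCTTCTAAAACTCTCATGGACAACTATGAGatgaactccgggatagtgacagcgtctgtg
Nfkb1-207 leaves out an exon of 67 bases (135590780 to 135590846) and is annotated as a target of nonsense-mediated decay, the removal of messages with a premature stop codon. Nfkb1-203 leaves out an exon of 178 bases (135589327 to 135589504) and is annotated as coding. The coding start of both transcripts is annotated as incomplete. Neither transcript has an exonic base of its own, and each has 1 intron of its own.

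Nfkb2, on the plus strand of chromosome 19, has alternative first exons, and transcripts from different starts carry the same coding sequence. RefSeq (build GRCm38.p6, the same coordinates as mm10) lists promoter windows of 250 bases before and 50 bases after a start for 3 of the 5 genes: 3 windows for Nfkb2 and 1 each for Rel and Rela. Nfkb1 and Relb had no entry. Both Nfkb2 windows that lie at the starts of abundant transcripts are given, chr19:46304487-46304786 beside the starts of Nfkb2-201 and Nfkb2-204, and chr19:46305445-46305744 at that of Nfkb2-202. Capitals mark matches, on either strand, to the κB consensus GGGRNNYYCC or to a rarer related motif, GGGNNTTTCC. The consensus stands for the sequence family that NF-κB dimers bind, and R is A or G, Y is C or T and N is any base.
Nfkb2 upstream start: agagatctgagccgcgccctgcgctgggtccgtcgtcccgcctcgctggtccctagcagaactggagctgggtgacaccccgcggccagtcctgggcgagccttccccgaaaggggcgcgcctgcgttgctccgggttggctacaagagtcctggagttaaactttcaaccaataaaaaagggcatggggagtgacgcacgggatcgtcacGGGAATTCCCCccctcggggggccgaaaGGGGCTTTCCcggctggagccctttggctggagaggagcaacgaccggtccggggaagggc
Nfkb2 downstream start: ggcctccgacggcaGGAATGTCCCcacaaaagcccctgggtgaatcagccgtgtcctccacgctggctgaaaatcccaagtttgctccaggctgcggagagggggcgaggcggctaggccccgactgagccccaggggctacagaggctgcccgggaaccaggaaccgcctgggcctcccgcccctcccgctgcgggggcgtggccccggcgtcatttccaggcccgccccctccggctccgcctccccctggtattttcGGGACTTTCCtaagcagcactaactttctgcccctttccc
Each window held 1 match to GGGNNTTTCC, which 535 of 32851 RefSeq promoter windows held (1.63%). The matches began 11 bases before the upstream start and 10 bases after the downstream one. Each strand and each overlapping match was counted on its own, so 4 matches are not 4 separate sites. On that count the κB consensus was found 4 times in the upstream window and 2 times in the downstream window. Of all windows, 2779 held it (8.46%). The Rel window (chr11:23770920-23771219) held 3 overlapping matches to the consensus, 1 of them also to the rarer motif, and the Rela window (chr19:5637291-5637590) held none. A match describes the letters only, and no measurement of binding was used.

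**Figure D1:**
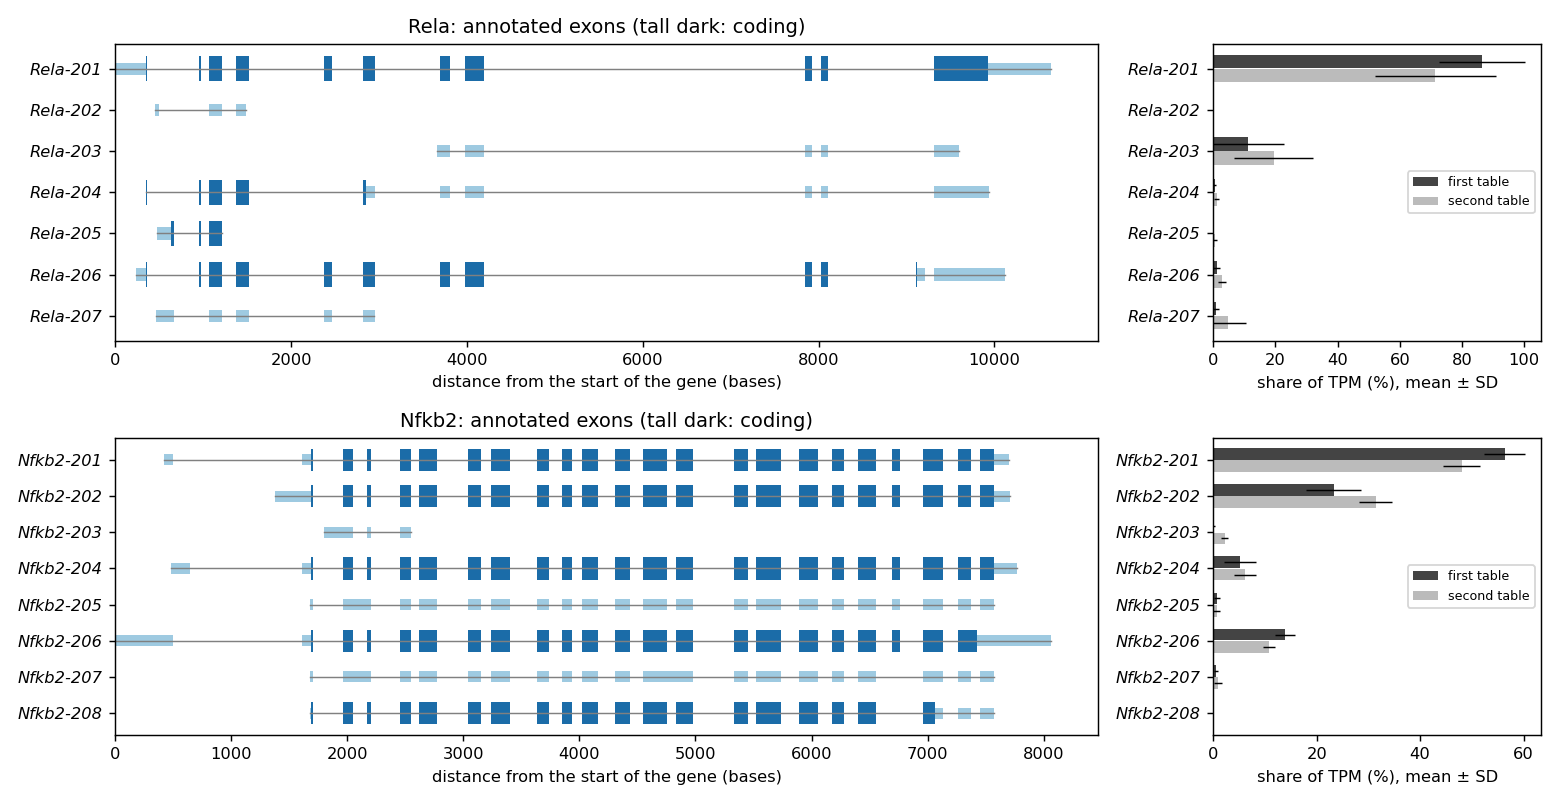
Annotated exons of the Rela and Nfkb2 transcripts by distance from the start of the gene in bases (left; tall dark boxes are coding, low pale boxes non-coding), with the mean share of the gene's TPM in the first and second transcript tables (right, error bars SD over 3 libraries). Rela-201 and Nfkb2-201 held the highest share of their genes in both tables, and Rela-203 lacks the first 6 exons of Rela-201.

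Expected counts in genes, which are estimated read numbers, summed to 37131719 to 58879278 per library. Levels are TPM, the abundance per length that the authors scaled to a fixed sum, and are given in the order of replicates 1, 2 and 3. Protein-coding genes held 32.8%, 36.2% and 23.5% of TPM, so all coding levels sit lower in replicate 3. All 10 macrophage markers were above 1 TPM (25.7 for Itgam to 5974 for Lyz2). The 3 B-cell, 4 erythroid and 3 stromal markers were below 0.1 TPM, and the 5 dendritic-cell markers between 0.1 and 0.75 TPM. Of 6 neutrophil markers 3 were above 1 TPM, at most S100a9 with 22.9 TPM, and the defining Ly6g was at 0. Of the T and NK cell markers Cd4 alone was above 1 TPM (23.7), with Cd3e at 0. The 4 nuclear RNAs Malat1, Neat1, Xist and Rn7sk summed to 47055, 43708 and 81541 TPM, highest in replicate 3, and most of this was Rn7sk at 46732, 43426 and 80560 TPM. Malat1 had 291, 264 and 898 TPM, and Malat1, Neat1 and Xist, but not Rn7sk (edgeR adjusted p = 0.471), were called as varying between libraries. In such bulk RNA, fewer cells of a type and less RNA per cell cannot be told apart.

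Messages of all 5 subunits were present in each library, in the order Rela, Rel, Nfkb1, Nfkb2 and Relb by mean level. Rela, the p65 subunit of the best-known heterodimer with p50 (ENSMUSG00000024927.8, chr19:5637483-5648130), had 32.5, 48.5 and 23.1 TPM. Its mean of 34.7 ± 12.8 TPM (SD, n = 3) was above 88.0% of the 11436 protein-coding genes counted as detected (mean of 0.1 TPM or more). Replicate 2 was the high library for Rela and replicate 3 the low one.

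Rel, the subunit most studied in lymphocytes and also induced in myeloid cells (ENSMUSG00000020275.9, chr11:23736847-23770970), had 27.2, 35.1 and 16.5 TPM and a mean of 26.3 ± 9.35 TPM. It showed the same order of libraries as Rela. Rel had the most reads of the 5 genes, with 10800, 13155 and 13250 expected counts, against 4288, 4893 and 6076 for Rela. Its single annotated transcript is 7466 bases long, of which 1764 are coding, so it yields more reads per molecule than the 2716 bases of Rela-201.

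The precursor genes lay close together and varied less. Nfkb1 (ENSMUSG00000028163.17, chr3:135584655-135691547) had 23.8, 23.7 and 18.1 TPM, a mean of 21.9 ± 3.29. Nfkb2 (ENSMUSG00000025225.15, chr19:46304320-46312385) had 19.0, 17.6 and 13.4 TPM, a mean of 16.7 ± 2.89. In both genes replicates 1 and 2 were close and replicate 3 was lowest. Relb, a partner of p52 in the non-canonical branch (ENSMUSG00000002983.17, chr7:19606217-19629438), was the lowest member with 13.8, 12.1 and 8.93 TPM and a mean of 11.6 ± 2.46. Its replicate 3 value was the lowest of all 15 gene levels. Even Relb was above 66.5% of detected coding genes, and Nfkb2, Nfkb1 and Rel were above 75.1%, 80.7% and 84.1%.

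The 5 members together made 116, 137 and 80.0 TPM, and 0.0616%, 0.0683% and 0.0527% of the counts. Within that sum Rela held 30.7% ± 4.05, Rel 23.2% ± 2.52, Nfkb1 20.1% ± 2.66, Nfkb2 15.3% ± 2.16 and Relb 10.6% ± 1.57. Scaling to the sum of coding genes in place of all features narrowed the spread. On that scale Rela averaged 110 ± 20.4, Rel 83.5 ± 13.5, Nfkb1 71.7 ± 5.69, Nfkb2 54.6 ± 5.16 and Relb 37.8 ± 4.25 TPM, and the order was the same.

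**Figure D2:**
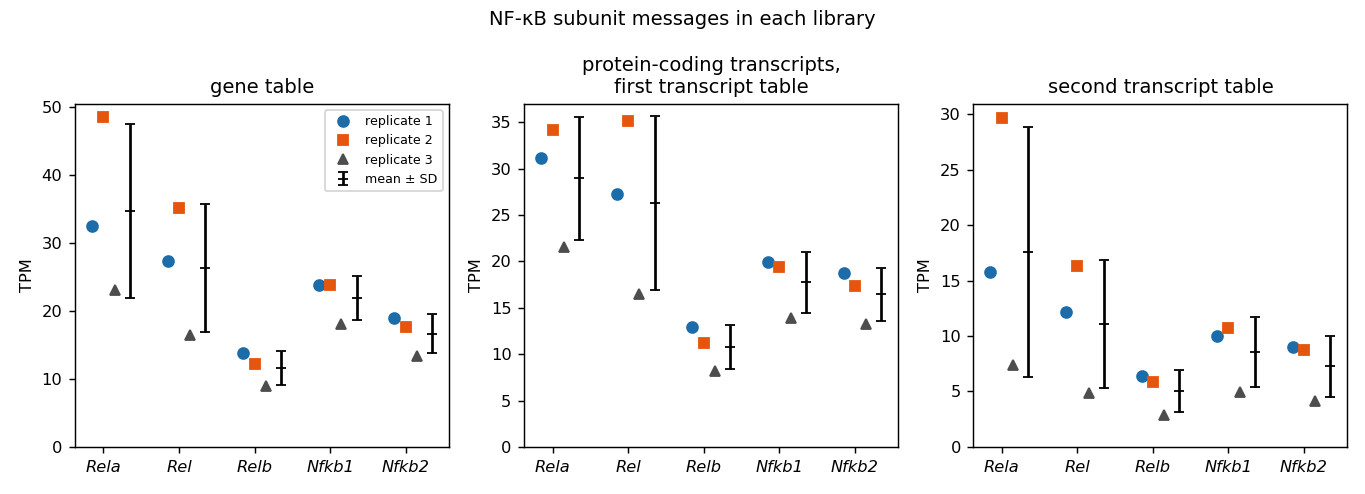
Level in TPM of each NF-κB subunit gene in replicates 1, 2 and 3 (points) with the mean and SD (bars), from the gene table (left), summed over protein-coding transcripts of the first transcript table (centre) and summed over all transcripts of the second transcript table (right). Rela in replicate 2 is at 48.5 TPM in the gene table and at 34.2 TPM over coding transcripts, and replicate 3 is the lowest library for every member in all 3 panels.

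None of the 5 genes was called as varying more between libraries than genes of like abundance. After normalization of library size, the SD of log2 CPM (counts scaled to a common library sum) was 0.13 for Rela, 0.27 for Rel, 0.15 for Relb, 0.07 for Nfkb1 and 0.10 for Nfkb2, beside a median of 0.16 over all genes tested. In edgeR's goodness-of-fit test 0 of the 5 members were called, with Benjamini-Hochberg adjusted p = 1.000 for each, whereas 1.56% of the 12244 genes tested were called. None of the 5 was under 0.05 unadjusted either, with the lowest unadjusted p in edgeR, 0.189, for Rel. Rel had 284, 342 and 234 CPM, and Nfkb1 98.5, 90.2 and 96.2 CPM. A p that misses the threshold does not show that the levels were the same.

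The question of which subunits stood above others was addressed with the 10 pairs of genes, as the difference of log2(TPM + 1) within each library, a scale that understates differences of low genes. In limma, with adjusted p over 13693 genes, 8 of 10 pairs were called. The share of all genes called against the same second gene was 89.1% for Rel, 89.4% for Relb, 93.1% for Nfkb1 and 91.1% for Nfkb2, so 8 of 10 is near the background. Every gene in such a fit is set against the same second gene, whose error is shared, so these p-values can be too small. In addition, limma pools the spread over all genes. The pooled part had 39.4 degrees of freedom for Relb, 4.12 for Nfkb1 and 6.41 for Nfkb2, beside 2 from the libraries, and full weight for Rel. The p-values therefore do not follow from the SD of a pair alone. For Rela minus Rel the limma standard error of 0.265 was above the SD of 0.122. With the first gene of each pair as the common gene instead, an alternative added after seeing the data, the same 8 pairs were called. The exact sign-flip test over 3 libraries cannot give a p below 0.25.

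Rela exceeded Relb by 1.18, 1.91 and 1.28, a mean of 1.46 ± 0.40 (SD, n = 3; limma adjusted p = 7.94e-11), and all 3 libraries were of 1 sign. Rela exceeded Nfkb2 by 0.97 ± 0.39 (limma adjusted p = 0.000294) and Nfkb1 by 0.59 ± 0.36 (0.00802), each in 3 of 3 libraries. Both differences were largest in replicate 2, and without it Rela exceeded Nfkb1 by 0.38 (limma adjusted p = 0.0180). Rel exceeded Relb by 1.07 ± 0.34 (limma adjusted p = 9.64e-08) and Nfkb2 by 0.58 ± 0.35 (0.00511), again in 3 of 3 libraries.

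Relb was below both precursor genes in every library. Relb minus Nfkb1 was -0.75, -0.91 and -0.94, with a mean of -0.87 ± 0.10 (limma adjusted p = 0.000124), and Relb minus Nfkb2 had a mean of -0.49 ± 0.05 (0.00278). These 2 differences, with that of Nfkb1 over Nfkb2, had the smallest SD of the 10 pairs. Nfkb1 exceeded Nfkb2 by 0.31, 0.41 and 0.40, a mean of 0.38 ± 0.06 (limma adjusted p = 0.0119). That call was lost without replicate 3 (0.0522), in the second transcript table (0.255) and over coding transcripts alone (difference 0.10, adjusted p = 0.402).

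The 2 pairs of neighbours at the top of the order did not pass. Rela minus Rel was 0.25, 0.45 and 0.46, with a mean of 0.39 ± 0.12 (limma adjusted p = 0.156), on the same side in all 3 libraries. Without division by length the difference turned to -1.29 (limma adjusted p = 2.39e-09), and Rel is the gene with more reads. Rel minus Nfkb1 was 0.19, 0.55 and -0.13, with a mean of 0.20 ± 0.34 (limma adjusted p = 0.213), and replicate 3 went the other way. The difference was 0.03 without replicate 2 and 0.37 without replicate 3 (limma adjusted p = 0.821 and 0.0530), and without division by length it was 1.57 and called (limma adjusted p = 2.94e-05). Over coding transcripts alone, an alternative chosen after seeing the data, Rel exceeded Nfkb1 by 0.50 and the pair was called (limma adjusted p = 0.00189).

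**Figure D3:**
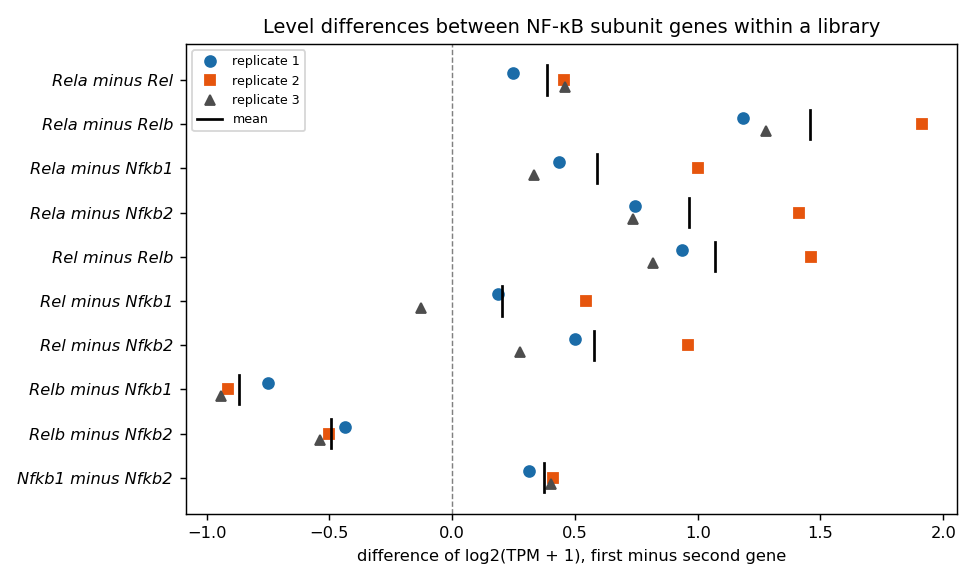
Difference of log2(TPM + 1) between each pair of NF-κB subunit genes, first minus second gene as named on the vertical axis, in replicates 1, 2 and 3 (points) and on average (black line); the dashed line marks 0. Both pairs of Relb with a precursor gene lie left of 0 in every library, and Rel minus Nfkb1 is the 1 pair with libraries on both sides.

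Most transcripts contributed little. Of the 36 member transcripts, 15 are annotated as coding, 10 as retained introns, 6 as targets of nonsense-mediated decay and 5 as other processed transcripts, and 3 were at 0 TPM in every library of both transcript tables. The first table was derived from a transcriptome alignment and the second from the reads directly. The transcript with the highest mean TPM was the same in both tables for Rela, Relb, Nfkb1 and Nfkb2, and it differed for 8.79% of the 7718 coding genes with several transcripts.

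Rela was dominated by Rela-201, the coding transcript of 2716 bases, with 95.6%, 70.6% and 93.3% of the gene's TPM in the first table and 82.9%, 48.9% and 82.3% in the second. Replicate 2 stood apart in both tables. There the retained-intron transcript Rela-203, shown above, held 24.4%, against 3.66% and 5.29% in replicates 1 and 3. Its level in replicate 2 was 11.8 TPM, with the authors' interval of 8.76 to 14.5 TPM, and in replicates 1 and 3 it was 1.19 and 1.22 TPM. In the second table Rela-203 had 1.99, 10.1 and 0.847 TPM, high in the same library.

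Because Rela-203 is short, 337 expected counts were worth 11.8 TPM in replicate 2, while 4398 expected counts of Rela-201 were worth 34.2 TPM. The effective length assigned to the Rela gene was 2410, 1949 and 2372 bases, lowest in replicate 2. Over coding transcripts alone Rela had 31.1, 34.2 and 21.5 TPM, a mean of 29.0 ± 6.61, and Rel had 27.2, 35.1 and 16.5 TPM. On that measure Rela minus Rel was 0.17 (limma adjusted p = 0.443). Rela-207, a processed transcript of 728 bases, also stood out in replicate 2 of the second table with 11.5% of the gene, against 1.87% and 1.07% in replicates 1 and 3. Averaged over libraries, the retained-intron share of Rela was 11.1% in the first table and 19.4% in the second, above 89.9% and 93.2% of coding genes with several transcripts, whose medians were 0.424% and 0.785%. Replicate 2 carried these averages, which were 4.48% and 12.1% without it.

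Relb messages mostly held the short exon of 9 bases: the 8 annotated transcripts with it made up 94.8%, 92.0% and 93.4% of the gene in the first table and 94.0%, 94.3% and 86.0% in the second. Relb-202 had 86.6%, 67.5% and 77.7% of the gene in the first table and 81.6%, 86.5% and 49.7% in the second. Relb-203, the same sequence but for 6 end bases, had 1.67%, 16.1% and 8.29% in the first table and 2.19%, 0.516% and 16.1% in the second. The library with the low Relb-202 share was the one with the high Relb-203 share in each table. Summed, Relb-202 and Relb-203 held 88.3%, 83.6% and 86.0% in the first table and 83.8%, 87.0% and 65.8% in the second. Relb-201, without the exon, held 3.70%, 7.83% and 2.24%, then 3.96%, 5.69% and 14.0%. Among Relb-201, Relb-202 and Relb-203 the exon was kept in 96.0%, 91.4% and 97.5% of TPM in the first table and in 95.5%, 93.9% and 82.4% in the second.

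Nfkb1 was the most divided of the 5 genes. Its main transcript, Nfkb1-206, held 39.3% ± 3.18 in the first table and 43.5% ± 0.841 in the second, and 6.35% and 12.5% of coding genes with several transcripts had a lower main share. As annotated, Nfkb1-206 starts at 135667799, with a first exon of 47 bases, and Nfkb1-201 at 135691546, with one of 424 bases. Both carry the same coding sequence of 2913 bases. Only 7 exonic bases belong to Nfkb1-206 alone and 2 to Nfkb1-201 alone, and each has 0 introns of its own. Next to no read is therefore particular to either, and the split between them is an estimate. Nfkb1-201 held 27.5%, 28.6% and 13.3% in the first table and 37.2%, 29.7% and 26.6% in the second, lowest in replicate 3 in both. Together the pair held 62.5% ± 5.52 and 74.7% ± 5.78 of the gene. The exon-skipping transcript Nfkb1-203 held 18.3% ± 2.26 and 9.56% ± 1.45.

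The decay target Nfkb1-207 depended on the table. It had 2.32, 3.74 and 1.33 TPM in the first table, with 216, 327 and 251 expected counts, and 0.0686, 0.000173 and 0 TPM in the second. Retained introns held 6.72%, 2.07% and 15.1% of Nfkb1 in the first table and 8.49%, 8.79% and 20.4% in the second. Replicate 3 was the highest in both, as it was for the nuclear RNAs named above; their part in this share was not tested. A transcript of unproven status inside an Nfkb1 intron on the same strand, Gm43430, had 0.50, 0.09 and 1.03 TPM, and whether strand and overlaps were handled in counting is not given in the sources used here.

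Nfkb2 was nearly all coding, with retained introns at 1.19% ± 0.157 in the first table and 1.57% ± 0.464 in the second. Nfkb2-201 led with 53.0%, 55.4% and 60.8%, then 48.6%, 51.4% and 44.1%. Nfkb2-202, from the downstream start at 46305696, held 29.1%, 18.8% and 21.9%, then 32.6%, 27.8% and 33.8%. Nfkb2-204 held 5.20% ± 3.05 and 6.10% ± 2.15. These 3 transcripts share 1 coding sequence of 2697 bases and made up 84.9% ± 1.71 and 85.5% ± 2.22 of the gene.

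By annotated start, the upstream group lay between 46304744 and 46304800, beside the first promoter window shown. It held 61.6% ± 4.23 in the first table and 54.1% ± 5.31 in the second. Most of this was Nfkb2-201, which has 0 exonic bases and 0 introns of its own. The shares by start are therefore estimates, and the use of each start was not measured. The downstream start, at the other window, held 23.3% ± 5.31 and 31.4% ± 3.18. Nfkb2-206, which starts farthest upstream at 46304320 and has a different coding end (2634 bases), held 13.8% ± 1.94 and 10.8% ± 1.24. An RNA on the opposite strand, AC114539.1, overlaps the start of Nfkb2 by 1292 bases and had 7.33, 6.08 and 4.40 TPM, and Psd overlaps its end by 299 bases at 3.97, 3.52 and 3.33 TPM. Reads of these overlaps are uncertain, since strand use in counting is not given.

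**Figure D4:**
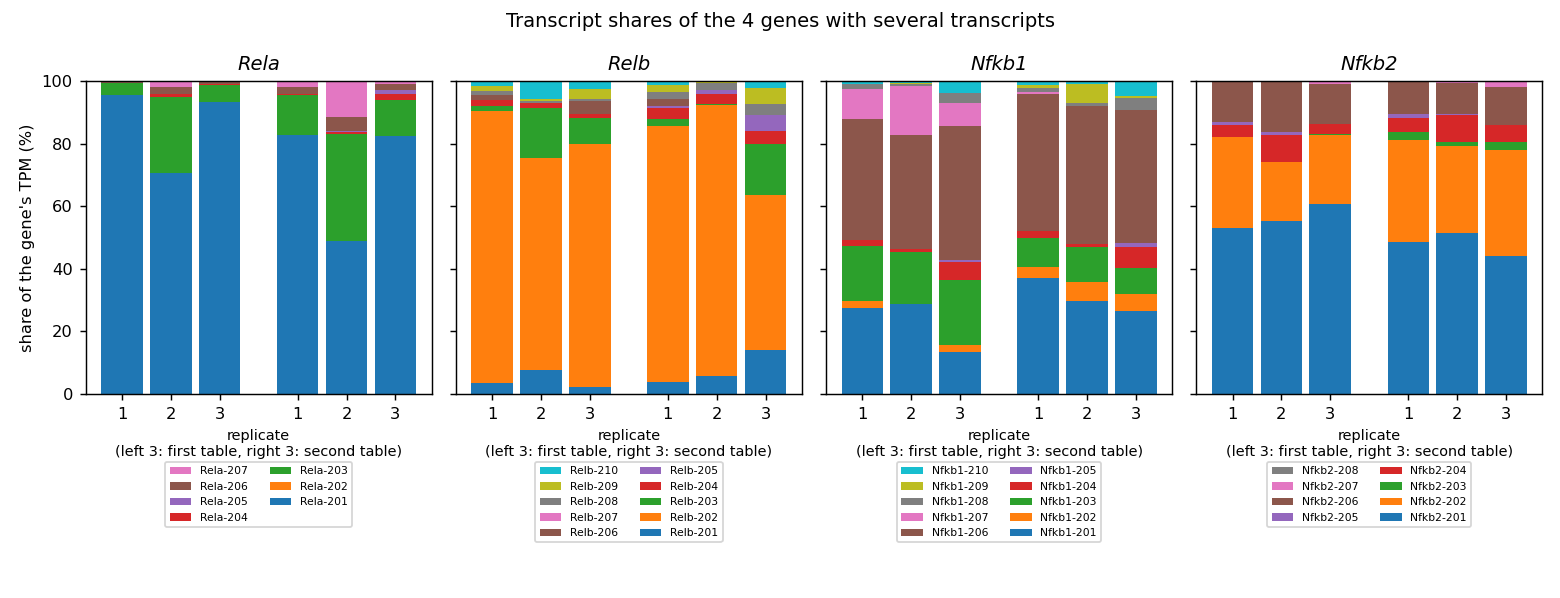
Share of the gene's TPM (%) held by each annotated transcript of Rela, Relb, Nfkb1 and Nfkb2, as stacked bars for replicates 1, 2 and 3 in the first transcript table (left 3 bars) and the second (right 3 bars). Rela-203 (green) is widest in replicate 2 of both tables, and Nfkb1-207 (pink) is visible in the first table and near 0 in the second.

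The tables were compared as the difference of log2(TPM + 1), second minus first, after centring on the median difference of each library, which was -0.26, -0.27 and -0.32. Of 29 member transcripts at 0.1 TPM or more, 14 were called in limma, 5 higher and 9 lower in the second table, where 46.5% of all 40252 transcripts were called. The count is near that background. It was 0 of 29 without replicate 1, 9 of 29 without replicate 3 and 3 of 29 with a pseudocount of 0.1. In the same settings 0.0596%, 31.2% and 10.6% of all transcripts were called. Among transcripts at 1 TPM or more it was 5 of 12 members, beside 28.6% of all transcripts. The 5 lowest differences were those of Nfkb1-207 at -1.42 ± 0.54 (SD, n = 3; limma adjusted p = 0.0124), Nfkb1-203 at -1.17 ± 0.27 (0.0104), Rela-201 at -1.07 ± 0.25 (0.0104), Rel-201 at -0.96 ± 0.25 (0.0104) and Nfkb2-201 at -0.95 ± 0.37 (0.0142). Gene sums were lower there too: Rel averaged 11.1 ± 5.78 TPM and Nfkb1 8.54 ± 3.15 TPM in the second table. Rela-203 differed by 0.28 ± 0.38 (limma adjusted p = 0.223), by 0.89 among transcripts at 1 TPM or more (0.0340) and by -0.01 without centring (0.966). Both tables come from the same reads, so this compares quantifications and not RNA.

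Genes that act with the subunits were at levels on both sides of theirs. All 23 listed pathway genes were above 1 TPM. Nfkbia, the IκBα inhibitor that NF-κB itself induces, had 963, 919 and 575 TPM, far above Rela in the same libraries, and Nfkbiz, a nuclear IκB protein, had 327, 389 and 165 TPM. The other 4 genes listed as inhibitors, Nfkbib, Nfkbie, Nfkbid and Bcl3, had means from 15.5 TPM (Nfkbie) to 53.2 TPM (Nfkbid). That name is a group label, and no inhibition was measured. Among the kinases, Ikbkb, the catalytic subunit of the canonical route, averaged 19.1 ± 2.83 TPM and Map3k14, the kinase that starts the non-canonical route, 5.43 TPM, the lowest of the 5.

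Of the adaptors that restrain Map3k14, Birc3 averaged 27.8 ± 7.20 TPM, while Traf2, Traf3 and Birc2 lay between 3.11 and 5.34 TPM. The F-box proteins that mark IκB for decay averaged 18.9 ± 3.17 TPM (Fbxw11) and 3.29 ± 0.700 TPM (Btrc), and Cul1, Skp1a and Rbx1 of the same ligase 15.6, 37.8 and 41.3 TPM. The acetyltransferase Ep300 averaged 28.0 ± 3.61 TPM and its relative Crebbp 12.7 ± 2.61 TPM, beside Cops5 at 14.5 TPM. In the edgeR spread test 0 of these 23 genes were called, beside the 1.56% of all genes tested.

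**Figure D5:**
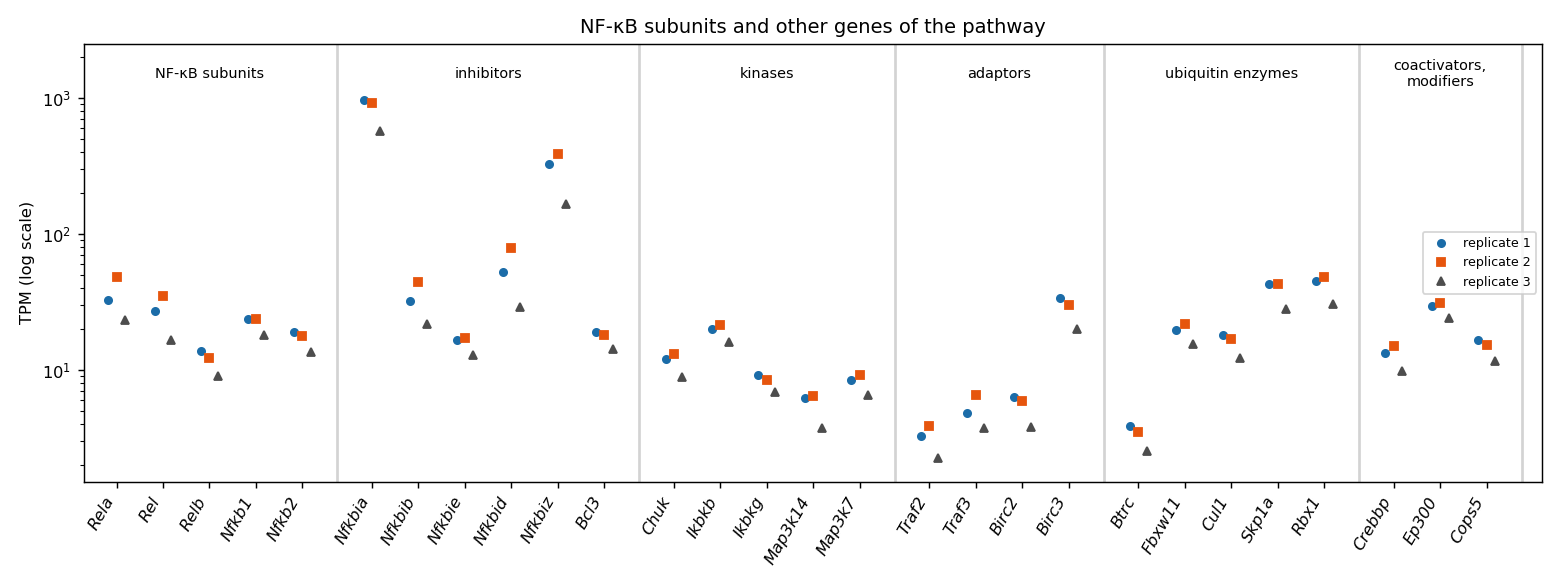
Level in TPM, on a log axis, of the 5 NF-κB subunit genes and 23 other genes of the pathway in replicates 1, 2 and 3, grouped by role. Nfkbia, Nfkbiz and Nfkbid stand above all 5 subunit genes in every library, and Ikbkg, Map3k14, Map3k7, Traf2, Traf3, Birc2 and Btrc below all 5.

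Likeness of pattern over 3 libraries was a weak guide. It was measured as the largest deviation between centred log2 CPM among 9810 coding genes with a mean count of at least 100. Snupn and Ap5m1 were nearest to Rela, Chrac1 and Ndrg3 to Rel, Ece1 and Enpp1 to Relb, Cep152 and Hexdc to Nfkb1, and Trim2 and Gmcl1 to Nfkb2. As many as 2273 genes were within 0.1 of Nfkb1, 1800 of Nfkb2, 1736 of Rela, 1068 of Relb and 290 of Rel. All 10 names changed when log2(TPM + 1) was used. Among the members themselves Nfkb1 and Nfkb2 were nearest, with a largest deviation of 0.04, and Rel and Relb farthest apart, with 0.42.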

How the data were processed

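Cytosolic RNA of Lipid A-treated macrophages was measured in 3 libraries of 1 group. The authors deposited, per the deposited notes, a gene table and a first transcript table with expected counts and TPM from a transcriptome alignment, and a second transcript table with estimated counts and TPM from the reads, on mm10 with GENCODE M21. The deposited first tables also give the percent of each gene per transcript, and interval bounds of TPM whose level is not stated. Tool names and strand settings: not given in the sources used here. The members and gene lists were chosen with earlier results of these data known. Named genes are the members, the listed pathway genes and, per member, the 2 genes nearest in pattern. Besides the 23 pathway genes given, 1 gene of that list is not reported here. Expected counts were rounded and tested in edgeR 4.0.16 (filterByExpr, TMM, intercept-only goodness-of-fit). Level and table differences of log2(TPM + 1) were fitted in limma 3.58.1 over all genes or transcripts with a mean of at least 0.1 TPM, called at adjusted p under 0.05. Scripts were tested on simulated data. Left out were 97 spike-ins (0.0533% to 0.314% of counts) and 26248 numeric IDs that name no gene, all at 0. Sequences came from GENCODE M21 transcripts and RefSeq promoters. Alternatives covered normalization, filters, pseudocount, scaling, the table used and leaving out each library. Those on coding transcripts, on counts of the second table and on the exchanged reference gene were added after the data were seen.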

Additional observations from a re-analysis of the deposited data

How the results depend on the processing

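No paired analysis was possible because the 3 libraries form 1 group, with no second group for a replicate block; gene pairs and tables were compared within each library. In edgeR's spread test 0 of the 5 members were called under every alternative run, while genes called numbered 104 among protein-coding genes only and 64 to 110 when a replicate was left out, against 191. Called pairs numbered between 7 and 10 of 10. In the main fits 89.1% to 93.1% of all genes were called, and the share under each alternative is not given here. Rela minus Rel turned to -1.29 in CPM, without division by length. Between the tables, called transcripts numbered 4257 of 40252 with a pseudocount of 0.1 (3 of 29 members). At 1 TPM or more they numbered 5053 of 17665 (5 of 12 members). Over all alternatives the lowest number was 24 of 40252, without replicate 1. The highest was 19143 of 36107 among transcripts of protein-coding genes only (53.0%, 15 of 29 members). Leaving out a replicate gave 24 to 16444 transcripts (0.0596% to 40.9%) and 0 to 13 of 29 members, the least without replicate 1. Nfkb1-201 turned to 0.19 at 1 TPM or more, where the median used for centring comes from fewer transcripts, and Relb-204 to -0.0035 without centring. Differences between tables that were not called also changed sign. Nfkb2-202 turned to 0.31 at 1 TPM or more. With a pseudocount of 0.1, Nfkb2-202 turned to 0.077, Nfkb2-204 to 0.075 and Relb-206 to -0.14. Without centring, Rela-203 turned to -0.0087, Rela-204 to -0.012, Relb-201 to -0.20, Relb-206 to -0.20, Relb-209 to -0.11, Nfkb1-208 to -0.24, Nfkb1-210 to -0.20 and Nfkb2-205 to -0.086. When each replicate was left out in turn, the range was -0.14 to 0.27 for Relb-201, -0.59 to 0.11 for Relb-203, -0.20 to 0.12 for Relb-210, -0.16 to 0.047 for Nfkb1-204, -0.034 to 0.12 for Nfkb1-208, -0.0080 to 0.19 for Nfkb1-210 and -0.14 to 0.037 for Nfkb2-204. Of the alternative values of single genes, pairs and transcripts, 348 kept their direction and call or moved by less than the spread, 46 lost the call, 10 gained it, 35 moved and 22 reversed. Runs without a replicate have fewer degrees of freedom, whichever replicate is left out. What caused the changes was not tested.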
